A study of Mus musculus with 4 samples.

Results

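Zmiz1 on mouse chromosome 14 was the gene whose acetylated length differed most in bp between both deposited H3K27ac peak lists of the series, and the peaks on and around it are described here one by one. It ranked 1 by that difference in the lists as deposited, but 3 with only peaks of −log10 q 5 or more. Its rank was 2 with lists of equal peak number or in bp per Mb of each list. The members were all peaks on the RefSeq span of Zmiz1 (chr14:25457875-25666743, mm10) extended by 200 kb on each side. These were 70 of the 47491 deposited peaks, 25 of 19148 in the BN1-labelled list and 45 of 28343 in the control-labelled list. Because the gene was picked for this difference, its lengths in either list are a description and carry no test.

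H3K27ac, an acetylation of lysine on histone H3, was profiled by fanChIP, a native chromatin immunoprecipitation of fractionated chromatin, followed by sequencing. The group labelled BN1 has the genotype cKit(+) BRD9-NUTM1, a leukaemia fusion of the chromatin remodelling subunit BRD9 with the acetyltransferase-binding protein NUTM1. The group labelled control has the genotype cKit(+). Both are CD45.2+ bone marrow cells of C57BL/6 mice, and growth and treatment protocols are given as none for both. Each group has 1 ChIP library and 1 input library, and the 2 input samples were not analysed here. The labels give no age, no promoter for the fusion and no count of animals. The extraction protocol speaks of BN1 cells for each sample, the control ones included, and the peak names inside the files begin with BM in the BN1-labelled list and with BRNU in the control-labelled list. These names point the other way from the titles, so the lists may have been exchanged, in which case every direction given here would be reversed. Which cells each list holds was not tested, and every direction follows the sample titles. With 1 library per group no difference has a replicate check.

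The BN1-labelled list covered 19.1 Mb and the control-labelled list 31.0 Mb, so more bp labelled control at a gene need not mean a larger share of that list. Sequencing depth is unknown, because peak lists hold no read counts. The pan-leukocyte gene Ptprc, which encodes CD45, had 2958 bp of peaks within 10 kb in the BN1-labelled list and 6634 bp in the control-labelled list. Coro1a, a leukocyte actin regulator, had 4080 bp labelled BN1 and 6953 bp labelled control. The myeloid factor gene Spi1 had 11921 bp labelled BN1 and 9890 bp labelled control. Kit, which encodes the receptor named in the genotype labels, had none in either list. The progenitor marker Cd34 had none labelled BN1 and 1601 bp labelled control. Another 4 genes were chosen as not expected in marrow blood cells, which was not checked here. Of these, Alb and Neurod1 had none in either list, and Col1a1 had 427 bp labelled BN1 and none labelled control. Cdh1 had none labelled BN1 and 6494 bp labelled control.

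Zmiz1 encodes a transcriptional coregulator related to the PIAS proteins, which carry a zinc finger domain of the SUMO ligase type. It is known as a cofactor of the Notch1 receptor in T cell leukaemia and as a coactivator of the androgen receptor and of Smad3. H3K27ac marks active promoters and enhancers, and long stretches of it, often over the first part of a gene and its introns, are found at genes that define a cell type. The positions of exons and introns were not used here.

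The RefSeq promoter window of Zmiz1 (GRCm38.p6, which is mm10), from 250 bases before to 50 bases after the annotated start at position 25459185, is shown first because the lists differed in how they covered it. Those of Ppif and Anxa11, downstream neighbours with a start region of nearly the same length in both lists, are shown beside it. Capitals mark matches to 10 short motifs searched on both strands.
Zmiz1, chr14:25458935-25459234, plus strand: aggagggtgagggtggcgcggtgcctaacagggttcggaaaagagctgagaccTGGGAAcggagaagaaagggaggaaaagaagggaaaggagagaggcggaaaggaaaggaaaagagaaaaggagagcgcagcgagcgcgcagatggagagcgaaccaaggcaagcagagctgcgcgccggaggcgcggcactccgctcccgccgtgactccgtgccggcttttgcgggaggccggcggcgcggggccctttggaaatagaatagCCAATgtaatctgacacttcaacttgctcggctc
Ppif, chr14:25693920-25694219, plus strand: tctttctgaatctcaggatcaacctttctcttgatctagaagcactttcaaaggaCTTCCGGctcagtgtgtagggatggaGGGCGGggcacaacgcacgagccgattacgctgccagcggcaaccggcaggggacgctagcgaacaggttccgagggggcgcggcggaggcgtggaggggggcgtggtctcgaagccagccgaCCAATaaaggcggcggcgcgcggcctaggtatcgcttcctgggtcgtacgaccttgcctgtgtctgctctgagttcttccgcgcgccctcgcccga
Anxa11, chr14:25841905-25842204, plus strand: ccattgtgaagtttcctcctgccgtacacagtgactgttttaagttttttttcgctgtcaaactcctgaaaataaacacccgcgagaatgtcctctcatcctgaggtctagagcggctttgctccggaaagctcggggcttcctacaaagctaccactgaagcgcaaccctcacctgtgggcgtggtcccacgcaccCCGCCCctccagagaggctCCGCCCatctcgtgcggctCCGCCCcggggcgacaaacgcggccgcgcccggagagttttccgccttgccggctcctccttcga

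The Zmiz1 window held 26 CpG dinucleotides against a median of 13 over 21238 promoter windows, and 77.4% of the windows held fewer. The capitals in it are TGGGAA, a core sequence of the Notch effector RBPJ, starting at position -197 from the start site, and CCAAT, starting at position 16. A TGGGAA match on either strand was present in 24.5% of all windows and a CCAAT match in 38.2%. The other 8 motifs had no match in the Zmiz1 window. They were the GC box, spelled GGGCGG and present in 46.2% of all windows, and the ETS motif, spelled CCGGAAG and present in 11.6%. The RUNX motif was spelled TGTGGT and present in 15.0%, and the AP-1 motif was spelled TGACTCA and present in 4.66%. The cyclic AMP response element, spelled TGACGTCA, was present in 2.24% of windows, and the E-box, spelled CACGTG, in 7.84%. The GATA motif, spelled AGATAA, was present in 9.65% of windows, and the TATA box, spelled TATAAA, in 12.6%. No letters are shared between matches of different motifs in these 3 windows. The capitals in the Ppif window mark the ETS motif on the reverse strand, a GC box and a CCAAT box, and those in the Anxa11 window mark 3 GC boxes on the reverse strand. A match is a stretch of letters and not a shown binding site.

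Over the window as a whole, peaks covered 19716 bp in the BN1-labelled list and 65295 bp in the control-labelled list, a ratio of 0.302 (BN1 over control). Within the gene span they covered 9769 bp, or 4.68% of the span, in the BN1-labelled list and 50816 bp, or 24.3%, in the control-labelled list. Before the gene the lengths were 922 bp labelled BN1 and 7097 bp labelled control. The 200 kb after the gene went the other way, with 9025 bp labelled BN1 and 7382 bp labelled control, but among peaks of −log10 q 10 or more they held 4589 bp labelled BN1 and 4964 bp labelled control. The shorter length labelled BN1 over the window as a whole therefore came from the gene and the stretch before it.

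**Figure D1:**
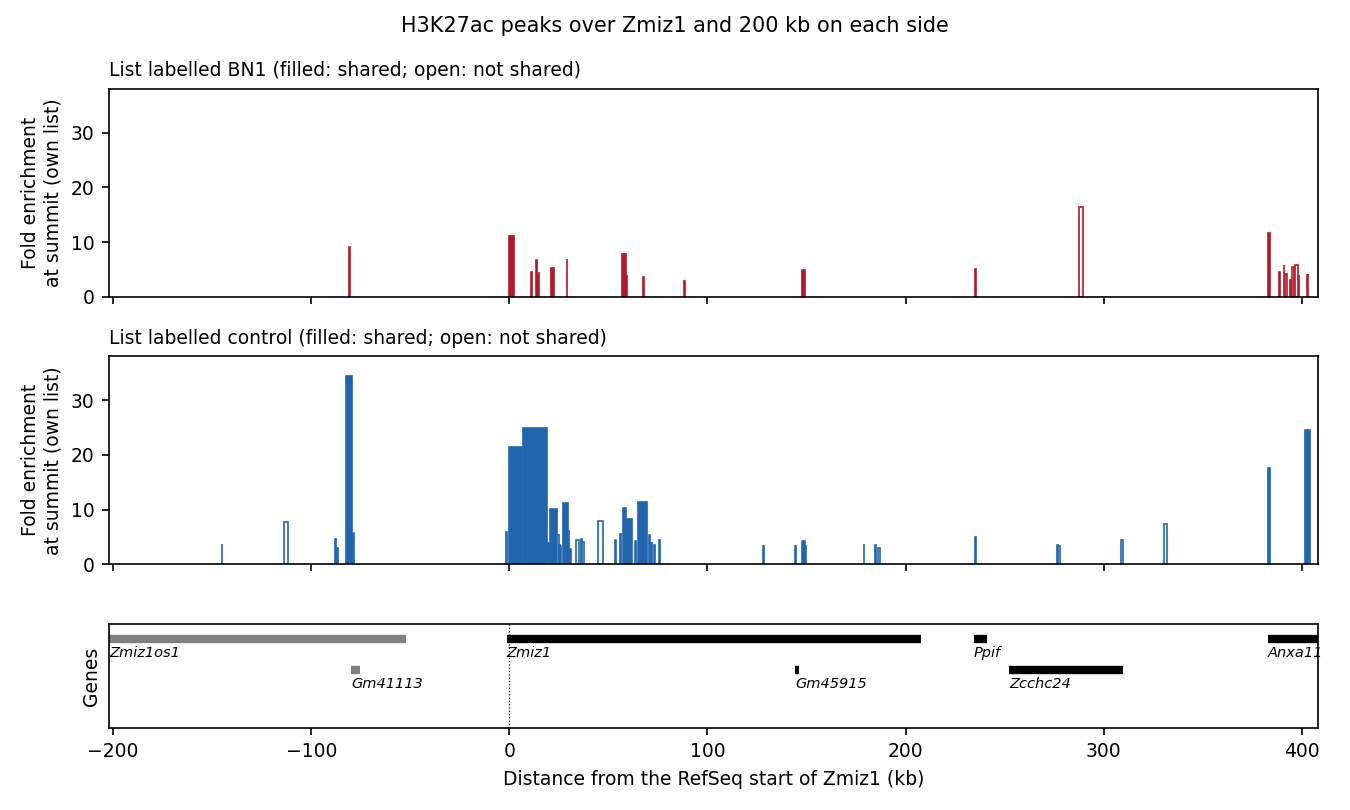
H3K27ac peaks by distance from the RefSeq start of Zmiz1 (kb), labelled BN1 above labelled control, with box width giving peak width and box height the authors' fold enrichment at the summit within that list, which does not compare between lists; filled boxes are shared and open boxes are not. Blocks at the bottom are RefSeq genes (black protein-coding, grey non-coding). The first 80 kb after the start hold 10 of the 12 BN1-labelled peaks on the gene and 24 of the 32 control-labelled ones. Peaks cover 10.2% of that stretch in the BN1-labelled list and 57.4% in the control-labelled list.

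The BN1-labelled list lay almost wholly inside the control-labelled list on the gene and before it, but not after it. Of its bp on the gene, 94.0% fell in peaks labelled control, whereas only 18.1% of the bp labelled control fell in peaks labelled BN1. By summit position, 11 of 12 peaks labelled BN1 on the gene overlapped a peak labelled control by at least 1 bp (91.7%, exact 95% binomial interval 61.5 to 99.8). In the control-labelled list 8 of 31 did so (25.8%, 11.9 to 44.6). The background over all peaks was 62.6% in the BN1-labelled list and 41.2% in the control-labelled list. The intervals cover counting error only, and neighbouring peaks share 1 gene and 1 library. The gene was picked for its greater length labelled control, which favours these unequal shares. Nothing is therefore read from their place beside the background. In the 200 kb after the gene 4 of 12 peaks labelled BN1 (33.3%, 9.92 to 65.1) and 3 of 7 labelled control (42.9%, 9.90 to 81.6) were shared. Before the gene the only peak labelled BN1 and 1 of 7 labelled control were shared.

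At the start of Zmiz1 both lists had a region, which was narrower in the BN1-labelled list. The peak labelled BN1 was 2278 bp wide, ran from 0.039 to 2.32 kb after the start site, had its summit at position 25459452 and a fold enrichment of 11.2. The peak labelled control was 6926 bp wide, ran from -0.358 to 6.57 kb, had its summit at position 25459790 and a fold enrichment of 21.4. The summits lay 338 bp apart, both after the start site. The RefSeq span of the gene begins earlier, at -1.31 kb from that site. A 459 bp peak labelled control overlapped that edge, from -1.72 to -1.26 kb. It had a fold enrichment of 5.96 and no counterpart in the BN1-labelled list. Of the 300 bases printed above, the peak labelled BN1 covered the last 11 and the peak labelled control all 300. The Anxa11 window was covered over 152 bases in the BN1-labelled list and 145 in the control-labelled list, and the Ppif window over 22 in the BN1-labelled list and 36 in the control-labelled list. Within 2500 bp of the start the lengths were 2278 bp labelled BN1 and 3317 bp labelled control, the latter with the 459 bp peak included. Scaled to each list's total they were 119.1 bp per Mb labelled BN1 and 106.9 bp per Mb labelled control. The direction at the start thus turned with the scale.

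The widest peak of the locus followed directly. The BN1-labelled list had 4 short peaks in that stretch, of 571, 289, 337 and 284 bp, with summits 10.99, 13.7, 14.3 and 14.9 kb after the start. All of them lay inside 1 control-labelled peak of 12025 bp, from 6.92 to 18.9 kb after the start, and together covered 12.3% of it. That peak had a fold enrichment of 24.9 and its summit at position 25473407, and by width it ranked 6 of all 28343 peaks in its list. The summit of the 337 bp peak labelled BN1 lay 61 bp from it. The first 20 kb after the start held 3759 bp labelled BN1, or 18.8% of the bin, and 19029 bp labelled control, or 95.1%.

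Further into the gene the same layout recurred at 3 places. A BN1-labelled peak of 1641 bp lay in a control-labelled one of 3598 bp that ran from 20.3 to 23.9 kb, with summits 147 bp apart. Near 29 kb, a peak of 281 bp labelled BN1 lay in one of 2668 bp labelled control, and near 67.7 kb a peak of 273 bp labelled BN1 lay in one of 4176 bp labelled control. Near 58 kb the lists matched more closely, with 1945 bp labelled BN1 and 1698 bp labelled control and summits 290 bp apart. A 275 bp peak labelled BN1 next to it overlapped 220 bp of a 2988 bp peak labelled control. A 2739 bp peak labelled control with its summit 46.4 kb after the start, with a fold enrichment of 7.83, was the strongest unshared peak of the gene in that list.

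**Figure D2:**
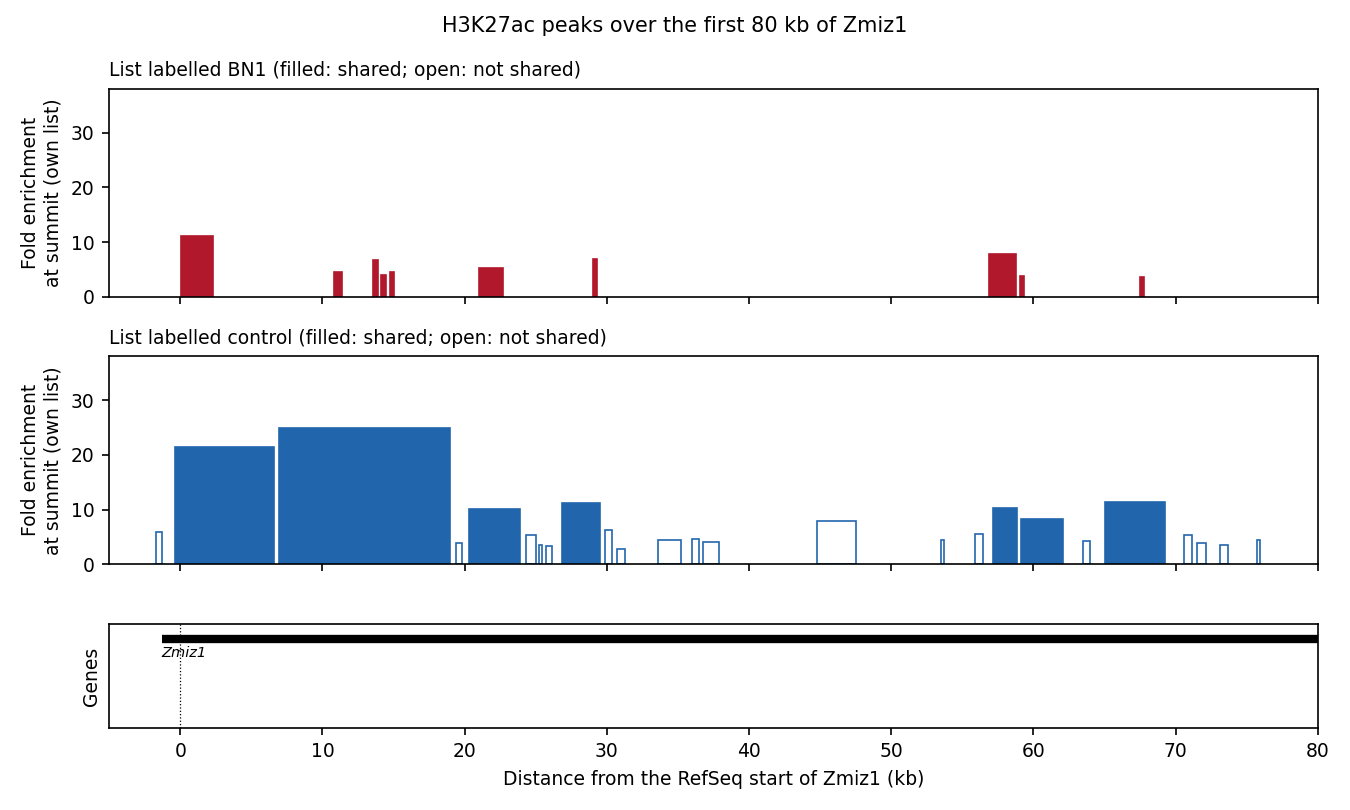
The same peaks over the stretch from 5 kb before to 80 kb after the start of Zmiz1, drawn as in the map of the whole locus (x in kb, height the fold enrichment within each list). All 10 BN1-labelled peaks shown overlap a control-labelled one, and 4 of them lie in the 12025 bp peak labelled control and cover 12.3% of it.

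Peaks over this stretch were fewer and, by the median gap, further apart in the BN1-labelled list. From 2 kb before to 80 kb after the start there were 10 peaks labelled BN1 with a median width of 313 bp and 25 labelled control with a median width of 603 bp. The median gap between neighbouring peaks was 6038 bp in the BN1-labelled list and 677 bp in the control-labelled list. Gaps under 500 bp made up 3 of the 9 labelled BN1 and 11 of the 24 labelled control. Peaks at least 2000 bp wide made up 2278 of the 9769 bp labelled BN1 on the gene and 35120 of the 50764 bp labelled control in peaks with a summit on it. The remaining 23 peaks labelled control without a counterpart on the gene had a median width of 544 bp and a median fold enrichment of 3.95, against a median width of 3293 bp and a median fold enrichment of 10.8 for the 8 with one. The groups overlapped, since the narrowest shared peak labelled control was 1543 bp wide with a fold enrichment of 4.28, and the widest unshared one was 2739 bp with 7.83. A wider peak has more bp with which to meet the 1 bp rule for sharing.

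Past 80 kb the gene was sparsely covered in both lists, with 1595 bp labelled BN1 and 4475 bp labelled control over 127.6 kb. One region stood in both lists near 148 kb, where a BN1-labelled peak was 1341 bp wide and its control-labelled partner 1543 bp, with a fold enrichment of 4.88 for the one labelled BN1 and 4.28 for the one labelled control, each in its own list. The only peak labelled BN1 on the gene without a counterpart was 254 bp wide at 88.5 kb, with a fold enrichment of 2.90, which placed it at rank 18754 of 19148 in its list. A control-labelled peak of 301 bp at 144.3 kb reached into Gm45915, a predicted gene inside Zmiz1, and one of 747 bp at 128.2 kb lay on the non-coding genes Gm32497 and 4931406H21Rik. The microRNA gene Mir3075, also inside Zmiz1, was in no peak, and its nearest peak labelled control lay 372 bp away.

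**Figure D3:**
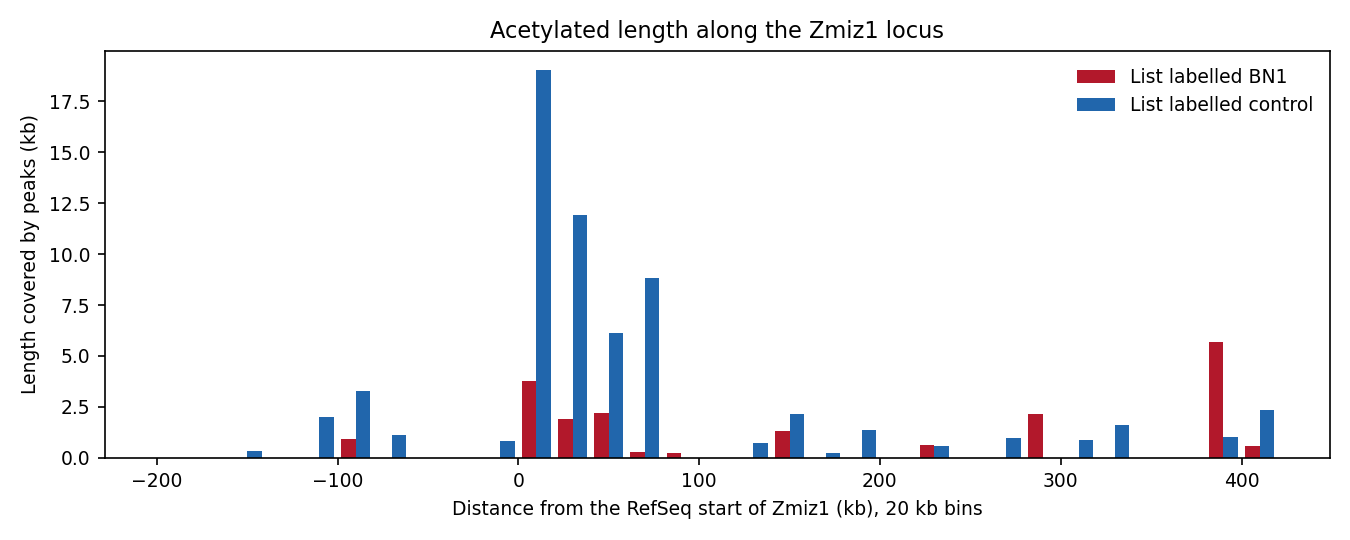
Length covered by peaks (kb) in bins of 20 kb by distance from the start of Zmiz1, with the bar labelled BN1 left of the bar labelled control in each bin. The BN1-labelled list was longer in 4 of 31 bins, the control-labelled list in 17, and 10 bins were empty. The 4 bins from 0 to 80 kb hold the tallest bars labelled control, and 3 of the 4 bins with a longer bar labelled BN1 lie past 200 kb.

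The region before the gene held a strong shared peak, which had the highest fold enrichment of the locus in the control-labelled list but not in the BN1-labelled list. In the BN1-labelled list it was 922 bp wide with a fold enrichment of 9.16, at rank 6898 of 19148 in its list. In the control-labelled list it was 2979 bp wide with a fold enrichment of 34.4, at rank 395 of 28343. Both summits lay at -80.9 kb from the start of Zmiz1 and 59 bp apart, inside Zmiz1os1. This non-coding gene on the opposite strand does not overlap Zmiz1. The control-labelled peak also reached the start of the non-coding gene Gm41113. These positions alone do not tie the region to any of the 3 genes. The other 6 peaks labelled control with a summit before the gene had no counterpart, and the widest of them was 2007 bp at -112.8 kb from the start.

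The neighbours after the gene had other layouts. Ppif, which encodes the mitochondrial permeability regulator cyclophilin D, had 1 start region in each list, of 653 bp labelled BN1 and 571 bp labelled control. Anxa11, which encodes the calcium-dependent membrane-binding protein annexin A11, had a start region of 1053 bp labelled BN1 and 1040 bp labelled control, with summits 28 bp apart. Inside Zcchc24, a zinc finger gene, a 2130 bp peak labelled BN1 with a fold enrichment of 16.4 had no counterpart. In that gene 3 peaks labelled control of 326, 625 and 896 bp lay elsewhere and had no counterpart either. The 896 bp peak lay within 1000 bp of the start of Zcchc24, where the BN1-labelled list had no peak. The body of Anxa11 within the window held 7 further unshared peaks labelled BN1, from 296 to 1406 bp wide, between 389.0 and 398.4 kb after the start of Zmiz1. Just beyond them, at 402 to 404 kb, the order turned again, with 2 peaks of 284 and 274 bp labelled BN1 inside one of 2332 bp labelled control whose fold enrichment was 24.6.

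No peak crossed a window edge, though the lower edge fell inside Zmiz1os1 and the upper edge inside Anxa11. The peak nearest inside the upper edge was 274 bp wide in the BN1-labelled list and lay 4320 bp from it. In the control-labelled list that peak was 2332 bp wide and lay 3491 bp from the edge. The nearest outside, at Tmem254a, lay 60320 bp beyond the edge in the BN1-labelled list and 60164 bp in the control-labelled list. Those outer peaks were 564 bp wide labelled BN1 and 795 bp labelled control. At the lower edge the outermost member was the 922 bp peak labelled BN1 and a 319 bp peak labelled control, and the next peak outside lay 147057 bp beyond the edge in the BN1-labelled list and 478167 bp beyond it in the control-labelled list.

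Stitching peaks across gaps of up to 5 kb gave a domain at the start of Zmiz1 in each list. In the BN1-labelled list the peak at the start stood alone with 2278 bp, at rank 2028 of 13484 domains by covered bp, and the 4 short peaks after it formed a second domain with 1481 bp covered. In the control-labelled list 14 peaks joined to 1 domain with 31750 bp covered over a span of 39.6 kb. It had the most covered bp of the 17536 domains in that list, with 31695 bp in the next. Another control-labelled domain on the gene, from 53.5 to 75.9 kb, had 12259 bp and ranked 100. The longest BN1-labelled domain in the window lay on Anxa11 and not on Zmiz1, with 6242 bp in 10 peaks.

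Within 10 kb of the gene the lengths were 9769 bp labelled BN1 and 51223 bp labelled control, a ratio of 0.191. The call that a gene was at least 2-fold shorter in the BN1-labelled list was met by 33.9% of the 13606 protein-coding genes with any peak, and the opposite call by 10.5%. Relative to each list's covered length those shares were 22.8% and 19.0%, and the lengths of Zmiz1 were 510.8 bp per Mb labelled BN1 and 1650.7 bp per Mb labelled control, a ratio of 0.309. Over those genes the median of BN1 minus control was -457 bp, and it turned to 10.2 bp per Mb once scaled. Since the gene was chosen by this contrast, nothing is read from its place beside these shares. In the BN1-labelled list it ranked 116 of 21887 genes by length and in the control-labelled list 1, where the next gene had 38788 bp. Among 904 genes of 150 to 300 kb it ranked 11 in the BN1-labelled list and 1 in the control-labelled list by bp on the span, while the median gene of that size had 0.127% of its span covered in the BN1-labelled list and 0.304% in the control-labelled list.

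The 5 genes with the most similar pair of lengths were taken by the distance of log2(bp + 1) over the 2 libraries, and all lay at 0.737 to 0.960 from Zmiz1. Cux1, a homeodomain factor, had 9895 bp labelled BN1 and 30747 bp labelled control. Ptk2b, a focal adhesion kinase of blood cells, had 9842 bp labelled BN1 and 29362 bp labelled control. Lcp1, the leukocyte actin bundler L-plastin, had 9639 bp labelled BN1 and 29089 bp labelled control. Mtss1, an actin and membrane binding protein, had 10753 bp labelled BN1 and 27638 bp labelled control. Sgms1, a sphingomyelin synthase, had 16107 bp labelled BN1 and 33028 bp labelled control. Each of the 5 had a length labelled control well under that of Zmiz1, and no other gene reached 51223 bp. Zmiz1 was picked by this contrast and ranked 1 by length labelled control, so nothing is read from that.

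**Figure D4:**
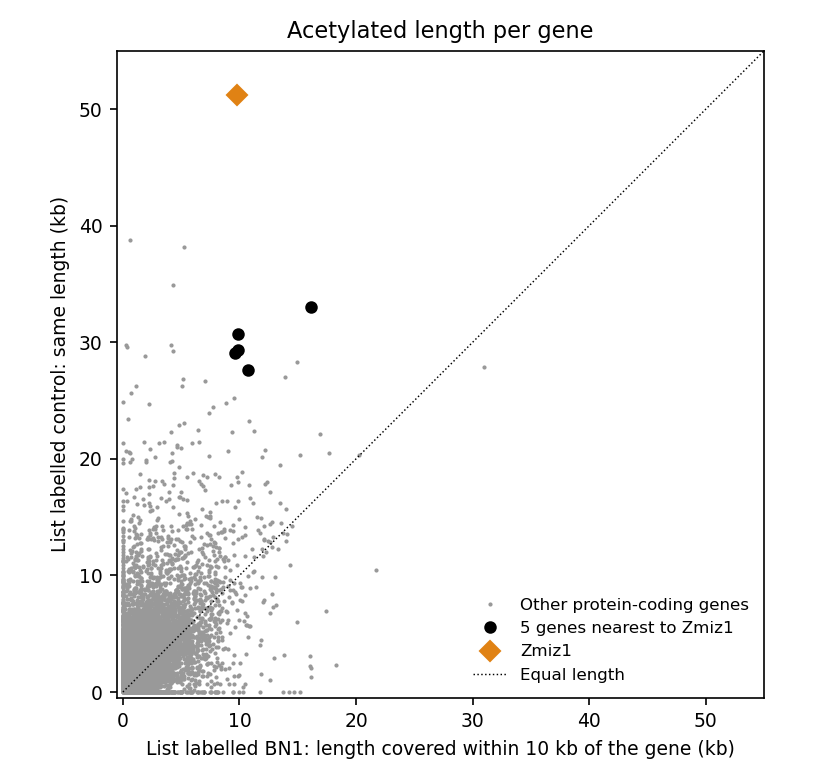
Length covered by peaks within 10 kb of each protein-coding gene (kb), labelled BN1 on the x axis and labelled control on the y axis, 1 point per gene with any peak; the dotted line marks equal lengths. Zmiz1 (diamond, 9769 bp labelled BN1 and 51223 bp labelled control) lies above all other points, and the 5 most similar genes (black) lie at 27638 to 33028 bp labelled control.

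Of the 5 other genes listed for the PIAS family, all had a peak in both lists and none was past 2-fold in bp in either direction, beside 33.9% of all genes shorter and 10.5% longer in the BN1-labelled list. Scaled to each list's covered length, 1 of them was past 2-fold longer in the BN1-labelled list, beside 19.0% of all genes. This was Pias3, a SUMO ligase of the family, with 61.9 bp per Mb labelled BN1 and 26.97 bp per Mb labelled control. Zmiz2, the closest relative of Zmiz1, had 3296 bp labelled BN1 and 3927 bp labelled control. Its direction turned with the scale, with 172.4 bp per Mb labelled BN1 and 126.55 bp per Mb labelled control. Pias4, another SUMO ligase, had the longest regions, with 4309 bp labelled BN1 and 7007 bp labelled control. Their median difference, BN1 minus control, was -631 bp, beside -457 bp over all genes with a peak, and both turned once scaled, to 23.0 bp per Mb for the family and 10.2 bp per Mb for all genes.

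Genes of Notch signalling and other partners of Zmiz1 went both ways. Of 25 listed genes, 22 had a peak in either list, 6 of them (27.3%) at least 2-fold shorter and 7 (31.8%) at least 2-fold longer in the BN1-labelled list, beside 33.9% and 10.5% of all genes. Scaled to each list's covered length, 3 were at least 2-fold shorter and 9 at least 2-fold longer in the BN1-labelled list, beside 22.8% and 19.0% of all genes. The list median of BN1 minus control was -12.5 bp and turned to 39.8 bp per Mb once scaled. Notch1, the receptor gene, had 7446 bp labelled BN1 and 4070 bp labelled control, while its paralogue Notch2 had 6008 bp labelled BN1 and 10723 bp labelled control. Rbpj, the DNA-binding effector of the pathway, had 3635 bp labelled BN1 and 9162 bp labelled control. The coactivator gene Maml2 had 2114 bp labelled BN1 and 9132 bp labelled control. Its paralogue Maml3 had 8222 bp labelled BN1 and 12362 bp labelled control, but 429.9 bp per Mb labelled BN1 and 398.4 bp per Mb labelled control, so its direction turned with the scale. Smad3, a transducer of TGF-beta signals, had 11729 bp labelled BN1 and 4010 bp labelled control. Ets1, an ETS factor of lymphoid cells, had 9428 bp labelled BN1 and 2492 bp labelled control. Runx1, a blood stem cell factor, had 11139 bp labelled BN1 and 16213 bp labelled control, and it turned as well, with 582.5 bp per Mb labelled BN1 and 522.5 bp per Mb labelled control. The list holds only 22 genes with a peak, and neither share was tested.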

How the data were processed

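H3K27ac peak lists of 1 ChIP library labelled BN1 and 1 labelled control were used. Per the submitters' processing notes, Bowtie2 2.5.4, Picard 3.2.0, deepTools 3.5.1, MACS3 3.0.1 and mm10 (GRCm38) were named, with no role or order. How the inputs were used, whether libraries were pooled and where the calling threshold lay were not given in the sources used here. The deposited columns hold the authors' fold enrichment at the summit, a linear ratio. They also hold the authors' −log10 p-value and −log10 q-value, and a deposited score that lay within 1 of 10 times the −log10 q. The lowest deposited −log10 q was 1.30 labelled BN1 and 1.32 labelled control. Fold enrichments are the peaks' own and were used only within a list.

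Lengths are bp covered by peaks. Summits are column start plus offset, printed 1-based. Peaks were shared at an overlap of at least 1 bp. Gene spans, start sites and promoter sequences came from RefSeq tables of GRCm38.p6, and all 15 genes on the window were looked up. Interval code was tested on simulated data. Intervals are exact (Clopper-Pearson). The gene, lists and tests were chosen with earlier results of these data known. Named genes were Zmiz1, genes within 1000 bp of a peak on the window, the PIAS family, the 8 longest of 25 Notch and partner genes, 5 genes of similar lengths outside overlapping windows and predicted names, and 9 cell type markers. Alternatives were −log10 q minimums of 5 and 10, lists of equal peak number and the top 10000 peaks of each list. Further ones were other flanks, overlap rules, stitching distances and the length scale. For equal peak number the control-labelled list was cut to 19148 peaks, and covered bp was not set equal. Python 3.11.15, numpy 2.4.6, pandas 2.3.3, scipy 1.17.1 and matplotlib 3.10.9 were used.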

Additional observations from a re-analysis of the deposited data

How the results depend on the processing

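The whole window stayed shorter in the BN1-labelled list under each of the 8 alternatives run for its length. Its length ratio, BN1 over control, was 0.345 with peaks of −log10 q 5 or more and 0.253 with those of 10 or more. It was 0.390 with lists of equal peak number and 0.238 with the top 10000 peaks. It was 0.192, 0.201 and 0.346 with flanks of 0, 50 and 500 kb, and 0.490 in bp per Mb. The ratio of the longest domains was 0.197, and 0.209, 0.0903, 0.232 and 0.0903 under those 4 peak selections in the same order, and 0.162 and 0.134 with stitching over 2 and 12 kb. This ratio sets domains of different genes side by side: the longest domain labelled BN1 lay on Anxa11, except with −log10 q of 10 or more and with the top 10000 peaks, where it was the 2278 bp at the start of Zmiz1, while the longest labelled control lay at that start in every case. In the 200 kb after the gene, tried after seeing the data, the ratio was 1.22, and 1.52, 0.924, 1.63 and 0.944 under the 4 selections in that order and 1.98 in bp per Mb, so the stronger peaks alone turned it. Zmiz1 ranked 1 by difference, but 3 under either −log10 q minimum. Its rank was 2 with lists of equal peak number, the top 10000 peaks, 50 kb gene flanks or bp per Mb. The share of peaks labelled BN1 that were shared, 64.0% over the window, was 85.7% with the top 10000 peaks, 91.7% and 92.3% with flanks of 0 and 50 kb, and 16.0% with a reciprocal overlap of 50%. That of peaks labelled control, 26.7%, was 43.5% and 50% under the −log10 q minimums of 5 and 10. It was 55% with lists of equal peak number, 66.7% with the top 10000 peaks and 8.89% with the reciprocal overlap. The count of genes at least 2-fold shorter in the BN1-labelled list was 4607, or 33.9% of the genes with any peak. With the top 10000 peaks it was 2742, or 24.5% of the genes that then had one. The cause of these moves was not tested. Stricter selections kept fewer peaks, while other flanks, overlap rules, stitching distances and the length scale kept the lists whole. No paired analysis was possible because each group had 1 ChIP library and the result comes from no test. Depth is unknown, and its part in which weak regions were called was not tested.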
